A study of Homo sapiens with 97 samples.

Results

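The vacuolar H+-ATPase (V-ATPase) is a rotary proton pump that acidifies lysosomes, endosomes and secretory vesicles. Its soluble V1 sector hydrolyses ATP in the cytosol, and its V0 sector, built mostly of proteins with several membrane spans, carries the protons across the bilayer. V1 proteins are made on free ribosomes, whereas V0 proteins are inserted into the membrane of the endoplasmic reticulum (ER) while they are being translated, so the mRNAs of 1 complex are translated in different places. The mRNAs of 10 subunits were followed here: 5 of the soluble sector (ATP6V1A, ATP6V1B2, ATP6V1C1, ATP6V1E1 and ATP6V1H) and 5 of the membrane sector (ATP6V0A1, ATP6V0A2, ATP6V0B, ATP6V0C and the accessory protein ATP6AP1). They were taken by name from the 60675 gene identifiers of each count table, and all 10 passed the filter on low counts in every table. ATP6V1A and ATP6V1B2 form the catalytic head, ATP6V1E1 is a peripheral stalk subunit, and ATP6V1C1 and ATP6V1H link the head to the membrane sector. ATP6V0A1 and ATP6V0A2 are alternative forms of the large membrane subunit a, ATP6V0B and ATP6V0C are subunits of the proton-carrying rotor, and ATP6AP1 is a glycoprotein with a single membrane span that takes part in assembly.

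The data are APEX-seq counts from HEK293T, a human embryonic kidney cell line. The peroxidase APEX2, when given biotin-phenol and hydrogen peroxide, tags RNA close to it with biotin, and the tagged RNA is purified and sequenced. Cells stably expressed APEX2 at the cytosolic face of the ER (ERM), the outer mitochondrial membrane (OMM), the cytosol (NES), the lumen of the ER (KDEL), the matrix of mitochondria (MITO), or in the nucleus at large (NLS), at its pores (NucPore), at the lamina (LMA) or in the nucleolus (NIK). Labelled libraries got peroxide and unlabelled libraries did not, with n = 2 biological replicates of each. OMM and NES cells were also treated with cycloheximide, puromycin, CCCP or nocodazole, the last for 3, 6, 9 or 30 min or 2 h, and nuclear and cytosolic fractions of cells were sequenced without labelling. All APEX-seq libraries were poly(A) RNA, apart from 1 set of total RNA with the MITO construct, and the labels do not state whether each construct is a single clone.

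Libraries of the 9 constructs held 9330259 to 76714068 counts, drug libraries 22749527 to 55763066, nocodazole libraries 15473060 to 33966883 and fractions 34961110 to 44973261; the lowest total, 2835969, was that of a MITO total RNA library. In the 18 unlabelled libraries of the constructs, VIM had a median of 689 CPM (counts scaled to library size) and 4 other genes of these cells were present in all 18, while PTPRC, ALB, CDH5, HBA1 and MYH7, markers of other cell types, had a median of 0 CPM and counts in at most 2 libraries. Landmark RNAs followed 4 of the labels: SCD was called higher at ERM (log2 fold change 2.76 ± 0.15, SE), ALDH18A1 at OMM (3.32 ± 0.19), MALAT1 at NLS (3.65 ± 0.52) and MT-ND5 at MITO (5.39 ± 0.37). At KDEL neither ER landmark was called (SCD -0.19 ± 0.14, SEC61A1 -0.22 ± 0.18), and at NucPore MALAT1 was not (0.96 ± 0.48). Some libraries stood apart in that more than 2% of well-expressed genes (averaging 5 CPM or more) had no count. These were ERM labelled 1 (5.02%), OMM unlabelled 2 (4.06%), NES unlabelled 1 (3.37%), both NIK labelled libraries (6.06 and 2.94%), the first labelled and first unlabelled NucPore library (2.21 and 2.10%), MITO total RNA labelled 1 (6.72%), both OMM unlabelled libraries with cycloheximide (3.08 and 7.75%), NES puromycin unlabelled 2 (2.11%), all 4 OMM unlabelled libraries with nocodazole (2.98 to 16.3%), OMM nocodazole 2 h labelled 1 (4.58%) and NES nocodazole 3 min unlabelled 2 (6.77%). Counts in bulk libraries cannot tell fewer cells with an RNA apart from less of it per cell.

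Coding sequences of the 10 members differ by sector in a feature of membrane spans. Codons with T in the middle position encode hydrophobic residues (phenylalanine, leucine, isoleucine, methionine and valine), so a stretch of them marks a candidate span. Windows of 20 codons with at least 12 such codons were found in all 5 membrane members: 8 separate windows in ATP6V0A2, 6 in ATP6V0A1, 2 each in ATP6V0B and ATP6V0C and 1 in ATP6AP1. None of the 5 soluble members had such a window, and 29.2% of 19494 genes with a complete coding sequence in GENCODE 29 did. Outside the members the division is not complete: the soluble subunit ATP6V1E2 has 1 such window, with 13 such codons, and the membrane subunit ATP6V0E2 has none, with at most 11. The window richest in such codons is given for the membrane members and for the 2 soluble members whose sequences are printed, read 5′ to 3′ on the coding strand in GRCh38. Capitals mark every codon's middle base where it is T.
ATP6V0A1: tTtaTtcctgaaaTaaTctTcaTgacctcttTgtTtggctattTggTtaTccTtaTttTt
ATP6V0A2: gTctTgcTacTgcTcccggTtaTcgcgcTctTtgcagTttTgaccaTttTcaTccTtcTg
ATP6V0B: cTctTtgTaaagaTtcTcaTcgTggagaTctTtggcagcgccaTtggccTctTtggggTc
ATP6V0C: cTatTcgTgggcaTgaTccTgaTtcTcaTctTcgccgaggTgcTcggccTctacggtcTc
ATP6AP1: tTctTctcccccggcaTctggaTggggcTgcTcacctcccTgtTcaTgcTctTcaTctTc
ATP6V1A: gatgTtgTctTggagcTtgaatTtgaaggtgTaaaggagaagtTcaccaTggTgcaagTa
ATP6V1E1: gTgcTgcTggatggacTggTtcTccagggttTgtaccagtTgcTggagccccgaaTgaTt
The windows hold 16 middle-T codons in ATP6V0A2 (chr12:123756880-123756939, plus strand, codons 787 to 806), 14 in ATP6V0A1 (chr17:42500741-42500800, plus, codons 572 to 591), 14 in ATP6V0C (chr16:2519656-2519715, plus, codons 127 to 146), 13 in ATP6V0B (chr1:43977139-43977198, plus, codons 172 to 191) and 13 in ATP6AP1 (chrX:154435739-154435798, plus, codons 421 to 440). They hold 10 in ATP6V1A (chr3:113786232-113786291, plus, codons 189 to 208) and 11 in ATP6V1E1 (chr22:17600063-17601118, minus, codons 114 to 133, across 1 intron). In the unprinted soluble members the richest window held 10 in ATP6V1B2, 11 in ATP6V1C1 and 10 in ATP6V1H. None of the membrane members had a T-rich window starting in its first 21 codons, where the richest window held 9 such codons, in ATP6V0B.

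Before labelling, the mRNAs of the 2 sectors were present at overlapping levels. Per length (RPKM, counts scaled by exon length and library size, over the 18 unlabelled libraries of the constructs), ATP6V0B was at 46.9 ± 14.8 (SD, n = 18), ATP6AP1 at 44.3 ± 9.80, ATP6V1E1 at 42.5 ± 6.65 and ATP6V1A at 35.6 ± 7.53. Then came ATP6V1C1 at 16.0 ± 3.06, ATP6V0C at 15.5 ± 8.83, ATP6V0A1 at 12.6 ± 2.97, ATP6V1B2 at 11.5 ± 3.05, ATP6V1H at 10.3 ± 1.72 and ATP6V0A2 at 5.43 ± 1.54. Neighbours in this order differed by less than the larger of their SDs, except for the steps from ATP6V1A to ATP6V1C1 and from ATP6V1H to ATP6V0A2. ATP6V0C varied most among the 18 libraries for its level, and 57.5% of its exon bases also belong to AC093525.2, an annotated coding gene on the same strand, so its counts cannot be fully told apart from that gene. ATP6V0B shares 8.5% of its exon bases with the antisense gene AL357079.2. The other members shared at most 2.1% with any other gene.

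At the ER membrane the large subunits of V0 stood above the soluble subunits. ATP6V0A2 and ATP6V0A1 mRNA rose in the labelled libraries, ATP6V0B mRNA fell, and none of the 5 soluble members changed past an adjusted p of 0.05 (edgeR quasi-likelihood test, adjusted by Benjamini-Hochberg over 22680 genes, here named called). Of all genes, 12.9% were called in this comparison, and 3 of 10 members were.
For ATP6V0A2 the unlabelled libraries had 70.9 and 61.0 CPM and the labelled 164 and 284 CPM. The groups did not overlap, and the log2 fold change was 1.81 ± 0.29 (SE, adjusted p = 2.37e-05). Absence of overlap was not limited to called members: at ERM the groups of ATP6AP1, ATP6V0C, ATP6V1A, ATP6V1B2 and ATP6V1E1 did not overlap either. Its share over all genes was not counted, so here and below it is a description only. ATP6V0A1 went from 180.3 and 139.8 CPM unlabelled to 334 and 272 CPM labelled, again without overlap (0.96 ± 0.24; adjusted p = 0.00542). Both calls held under all 11 alternatives, and without ERM labelled 1 the log2 fold changes were 2.15 and 0.81.
ATP6V0B moved the other way, from 112 and 159.8 CPM unlabelled to 53.6 and 78.4 CPM labelled (-1.0 ± 0.30; adjusted p = 0.0210). Its groups did not overlap, but the call ended without ERM labelled 1 (adjusted p = 0.0841) or without ERM unlabelled 2 (0.0951). ATP6AP1, with 243 and 250.4 CPM unlabelled and 262 and 264 CPM labelled, had a log2 fold change of 0.13 ± 0.21 and was not called (adjusted p = 0.864). ATP6V0C counts were low (13.0 and 14.1 against 24.6 and 20.4 CPM) and its value of 0.78 ± 0.76 was not called (adjusted p = 0.630).
The 5 soluble members all had values below 0, from -0.71 to -0.09, with a median of -0.17 against 0.78 for the membrane members and 0.00 for all genes. ATP6V1E1 was lowest, at 156 and 136 CPM unlabelled and 103 and 70.1 CPM labelled (-0.71 ± 0.26; adjusted p = 0.0629). It was the 1 soluble member of 5 with an unadjusted p under 0.05, and the 1 that DESeq2 called. edgeR also called it with low counts kept (adjusted p = 0.00641), with a replicate block (0.0136) and with controls of all 9 constructs (0.0299). ATP6V1A, with 198 and 188 CPM unlabelled and 169.5 and 165 CPM labelled, stayed within 1 SE of no difference (-0.17 ± 0.21).

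**Figure D1:**
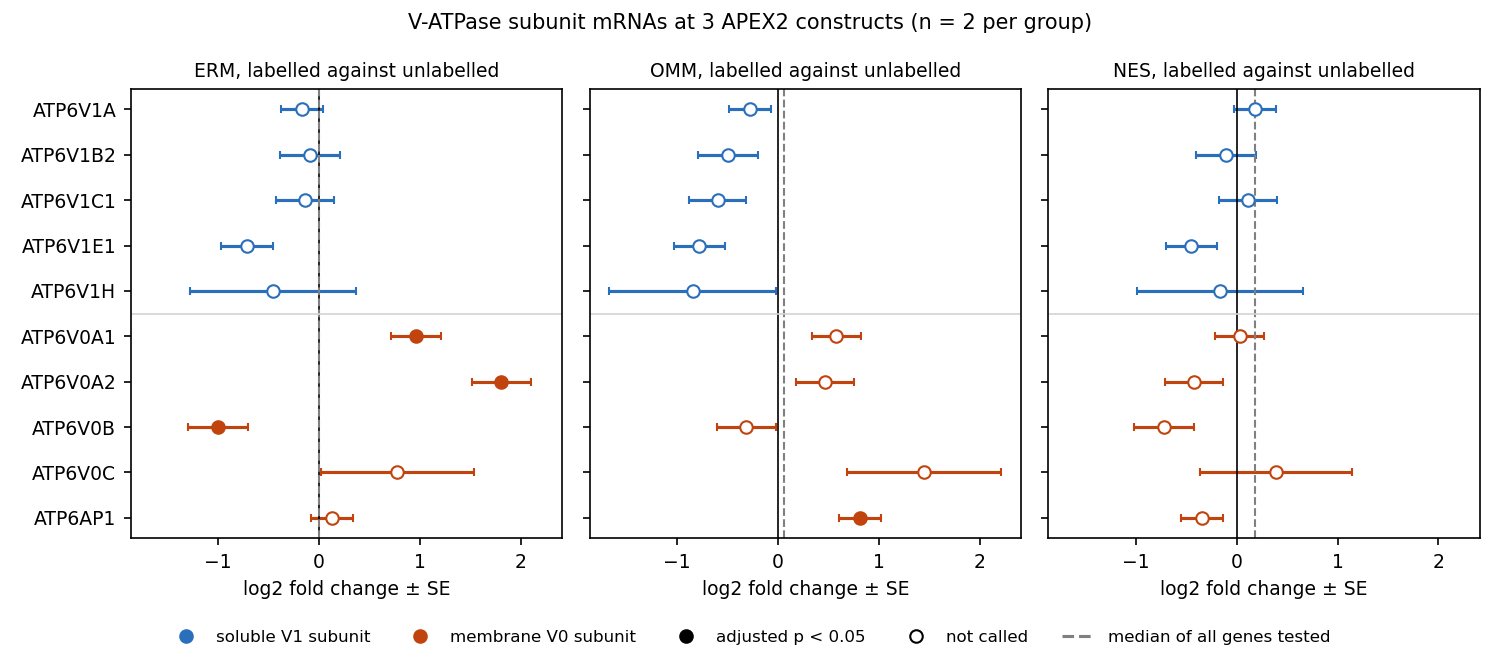
Log2 fold change of labelled against unlabelled libraries (x axis, mean and standard error, n = 2 per group) for each V-ATPase subunit mRNA (y axis) at ERM, OMM and NES; filled points are called, and the dashed line is the median of all genes tested. At ERM the points of ATP6V0A1 and ATP6V0A2 lie to the right and that of ATP6V0B to the left, and at OMM the point of ATP6AP1 alone is filled.

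At the outer mitochondrial membrane, against its own unlabelled libraries, ATP6AP1 was the member called higher. It had 272 and 236 CPM in the unlabelled libraries and 416 and 459 CPM in the labelled, with no overlap (0.81 ± 0.21; adjusted p = 0.0129). That was 1 of 10 members, and 4.96% of all genes were called. The call ended without OMM labelled 2 (adjusted p = 0.0801), without OMM unlabelled 2, a library that stood apart (0.124), and with the libraries of OMM alone in the fit (0.0754).
ATP6V0A1 and ATP6V0A2 had positive values that were not called, 0.58 ± 0.24 and 0.46 ± 0.29, and ATP6V0B was at -0.31 ± 0.30. Against the unlabelled libraries of all 9 constructs both subunit a genes were called, ATP6V0A1 at 1.03 (adjusted p = 1.89e-05) and ATP6V0A2 at 1.05 (0.000166). The soluble ATP6V1B2 was called lower with these controls (-0.80, adjusted p = 0.0212). All 5 soluble members had values below 0, with a median of -0.60 against 0.58 for the membrane members and 0.06 for all genes. ATP6V1E1 again had the smallest p among them (149.9 and 163 CPM unlabelled, 92.6 and 86.5 labelled, -0.78 ± 0.26, adjusted p = 0.0769). In the main fit edgeR called none of the 5 soluble members, 2 had an unadjusted p under 0.05, and DESeq2 called 1, ATP6V1E1. edgeR also called ATP6V1E1 with low counts kept (adjusted p = 0.00589) or with a replicate block (0.0150).

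In the cytosol no member was called, against 3.84% of all genes. One member, ATP6V0B, had an unadjusted p under 0.05 (110.4 and 167 CPM unlabelled, 95.6 and 75.7 CPM labelled, -0.72 ± 0.30, adjusted p = 0.246), and DESeq2 called 0 soluble and 0 membrane members. Without NES unlabelled 1, which stood apart, ATP6V0B was called (-0.96, adjusted p = 0.0200). The soluble members lay between -0.45 and 0.18 and the membrane members between -0.72 and 0.39, so the ranges of the sectors overlapped.

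Exon length moved with these values. For the 10793 protein-coding genes that averaged 5 CPM or more, the median log2 fold change at ERM ran from -0.78 in the shortest quartile (exon union up to 3567 bases) to 0.48 in the longest (over 7869 bases), from -0.18 to 0.24 at OMM and from -0.26 to 0.26 at NES. ATP6V0A2 (13729 bases) and ATP6V0A1 (10955) are in the longest quartile, and ATP6V0B (3535), ATP6V0C (1498) and ATP6V1E1 (3212) in the shortest, the first of these close to its upper limit. ATP6V0A2 at 1.81 and ATP6V0A1 at 0.96 thus lay above the median of their quartile at ERM, and ATP6V0B at -1.0 and ATP6V1E1 at -0.71 lay near that of theirs. ATP6AP1 (4884 bases) is in the second quartile, whose medians were 0.01 at ERM and 0.07 at OMM. The part of length in the values of single members was not tested.

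**Figure D2:**
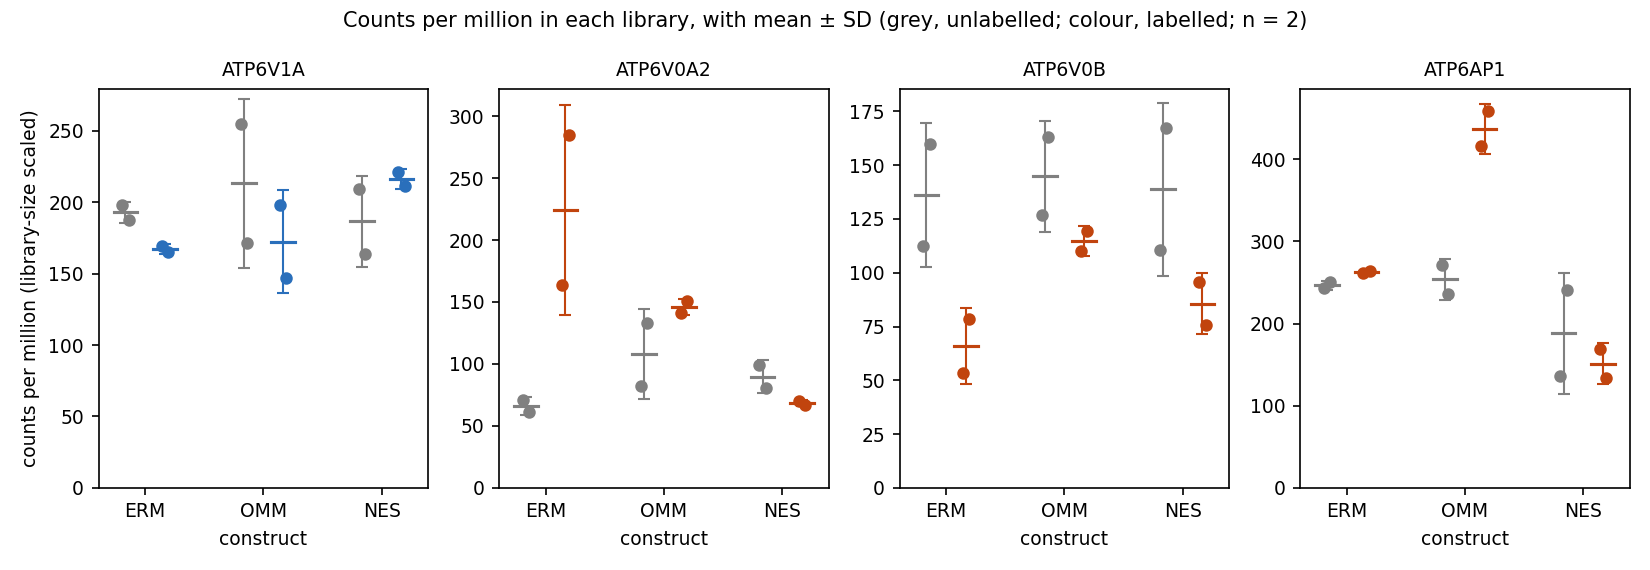
CPM in each library (y axis, scaled by TMM library size) for ATP6V1A, ATP6V0A2, ATP6V0B and ATP6AP1 at ERM, OMM and NES (x axis), unlabelled in grey and labelled in colour, with the mean and SD of n = 2. ATP6V0A2 is highest in the ERM labelled libraries, at 164 and 284 CPM, and ATP6AP1 in the OMM labelled libraries, at 416 and 459 CPM.

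Whether a member is labelled more at a membrane than in the cytosol was tested as the difference between the 2 contrasts. ATP6V0A2 had a larger labelling at ERM than at NES by 2.23 ± 0.41 (adjusted p = 0.000701), the single call among 10 members where 3.82% of genes were called. ATP6AP1 had a larger labelling at OMM than at NES by 1.16 ± 0.29 (adjusted p = 0.0277), again 1 of 10 where 1.76% were called. The first call held under all 14 alternatives. The second ended when any of NES labelled 2, OMM labelled 2, NES unlabelled 2 or OMM unlabelled 2 was left out (adjusted p between 0.0736 and 0.307), and without NES unlabelled 2 the difference was 0.63.
No member was called between ERM and OMM by edgeR, where 1.77% of genes were. ATP6V0A2 (1.34 ± 0.41, adjusted p = 0.0928) and ATP6AP1 (-0.68 ± 0.29, adjusted p = 0.281) had unadjusted p-values under 0.05 in opposite directions, and DESeq2 called 1, ATP6V0A2. The 3 differences share libraries and are not independent.

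Other genes of the complex, listed by general knowledge with results of these data known, gave calls of both kinds at ERM. Of 5 tested membrane subunits outside the 10 members, 1 rose: ATP6AP2, an accessory protein with a single span (1.02 ± 0.22, adjusted p = 0.00116). Of 9 tested soluble subunits, 4 fell and none rose, where 12.9% of all genes were called. They were the rotor stalk subunits ATP6V1D (-1.50 ± 0.37) and ATP6V1F (-1.72 ± 0.24), the peripheral stalk subunit ATP6V1G1 (-1.46 ± 0.29), and ATP6V0D1 (-0.84 ± 0.25), which belongs to V0 by name but has no membrane span. Of 7 assembly factors and regulators, 2 rose: the assembly chaperone VMA21, a protein with membrane spans (1.09 ± 0.31), and WDR7, a partner of the DMXL proteins (2.04 ± 0.66).
ATP6V1F and ATP6V1G1, with 789 and 1305 bases of exons, are in the shortest quartile of genes, whose median at ERM was -0.78. ATP6AP2 (9560 bases) and WDR7 (15694), which rose, and ATP6V0D1 (8212), which fell, are in the longest, whose median was 0.48. The part of length in these values was not tested. The calls of ATP6AP2, ATP6V1F and ATP6V1G1 held whichever library was left out. ATP6V1D lost its call without ERM labelled 1 (adjusted p = 0.106) or unlabelled 1 (0.0679), ATP6V0D1 without labelled 2 (0.349) or unlabelled 2 (0.252), VMA21 without unlabelled 1 (0.0822), and WDR7 without labelled 1 (1.36, adjusted p = 0.391) or unlabelled 2 (0.384).
ATP6AP2 had larger labelling than at NES both at ERM (1.69 ± 0.32) and at OMM (1.48 ± 0.32); the second call ended without NES labelled 2 (adjusted p = 0.0596). Against the OMM unlabelled libraries it rose by 0.81 ± 0.22 (adjusted p = 0.0244), a call that ended without OMM labelled 1 (0.0885), labelled 2 (0.0737) or unlabelled 2 (0.373). ATP6V0E2, a small V0 subunit, rose at OMM (1.23 ± 0.29, adjusted p = 0.00577) and was also called higher at NES (1.08 ± 0.29, adjusted p = 0.0216), the latter not without NES unlabelled 1 (0.50, adjusted p = 0.946).

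In the 4 nuclear constructs 7 of 40 member values were called, all of membrane members. ATP6V0B fell in 3 of them, and ATP6V0A1 and ATP6V0A2 each rose in 1. The shares of all genes called were 5.23% at NLS, 5.19% at NIK, 7.7% at LMA and 0.0% at NucPore.
ATP6V0B went from 191 and 169 CPM unlabelled to 77.2 and 58.2 labelled at NLS (-1.37 ± 0.30, adjusted p = 0.00377). At LMA it went from 149 and 176 to 57.6 and 63.7 CPM (-1.36 ± 0.30, adjusted p = 0.00257). At NIK it went from 77.3 and 86.7 to 12 and 37.1 CPM (-1.71 ± 0.31, adjusted p = 0.000603). The groups did not overlap in any of these.
ATP6V0A1 rose at NLS, from 90.3 and 86.7 to 175 and 156 CPM (0.94 ± 0.24, adjusted p = 0.0150). ATP6V0A2 rose at LMA, from 61.1 and 46.1 to 119 and 117 CPM (1.20 ± 0.29, adjusted p = 0.00619), a call that ended without LMA unlabelled 2 (0.0941). The subunit a genes were thus called higher with nuclear enzymes as well as at the ER membrane.
ATP6AP1 fell at NIK, from 159.8 and 169.6 to 74.0 and 96.4 CPM (-0.93 ± 0.21, adjusted p = 0.00541). ATP6V0C fell there from 14.5 and 22.1 CPM to 1.95 and 0 CPM, the second labelled library without a count (adjusted p = 0.00244). Both NIK labelled libraries lack counts for some well-expressed genes: ATP6V1H was at 0.0355 and 62.2 CPM in them. The 3 NIK calls ended when only the NIK libraries were fitted (adjusted p = 0.222 for ATP6V0B, 0.460 for ATP6V0C and 0.162 for ATP6AP1).
No soluble member was called in the nuclear constructs. Their medians were -0.56 at NLS, -0.68 at NIK, -0.35 at LMA and -0.16 at NucPore, where all genes had medians of 0.29, 0.00, 0.25 and 0.00. ATP6V1A was nearest to a call, at NLS (173 and 204 against 119 and 111 CPM, -0.68 ± 0.21, adjusted p = 0.0507). Unadjusted p-values under 0.05 numbered 1, 2, 0 and 0 of 5 in these constructs, and DESeq2 called 1 (ATP6V1A), 0, 0 and 0. By exon length, the medians ran from -0.41 in the shortest to 0.35 in the longest quartile of genes at NLS, from -0.54 to 0.47 at LMA and from -0.35 to 0.18 at NIK, and the part of length in the calls of ATP6V0B, ATP6V0A1 and ATP6V0A2 was not tested. At NucPore no gene at all was called by edgeR and 1352 had an unadjusted p under 0.05.

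At KDEL no member was called and 0.0% of genes were; no member and 45 genes in all had an unadjusted p under 0.05, and DESeq2 called 0 soluble and 0 membrane members. At MITO 1 of 10 was called where 1.07% of genes were: ATP6V0A1 went from 127 and 94.4 CPM unlabelled to 157 and 332 CPM labelled (1.12 ± 0.25, adjusted p = 0.00996). The 2 labelled libraries were far apart, and without MITO labelled 2 the value was 0.53 (adjusted p = 1.00). With total RNA of the MITO construct no member was called by edgeR where 0.577% of genes were. ATP6V1H had an unadjusted p under 0.05 there (-0.99 ± 0.43), and DESeq2 called 0 soluble and 0 membrane members.

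The nuclear and cytosolic fractions divided the members by sector, with 1 exception. All 5 soluble members were lower in the nuclear than in the cytosolic fraction, 4 of 5 membrane members were higher, and ATP6V0C was lower. All 10 were called, but so were 62.1% of all genes, a share so large that the count of member calls says little. The ER landmarks SCD (0.80 ± 0.18) and SEC61A1 (1.12 ± 0.20) were higher in the nuclear fraction, while ACTB was lower (-1.98 ± 0.20); the part of ER RNA in these values was not tested. Exon length moved with the fractions too, with medians from -0.76 in the shortest to 0.19 in the longest quartile of genes.
ATP6V0A1 had 55.8 and 84.5 CPM in the cytosolic and 218 and 228 CPM in the nuclear libraries (1.64 ± 0.20, adjusted p = 2.17e-05). For ATP6V0A2 the cytosolic libraries had 40.1 and 32.7 CPM and the nuclear 71.7 and 83.6 CPM (1.06 ± 0.20), and for ATP6AP1 90.8 and 151 CPM and 251 and 257 CPM (1.04 ± 0.21). The nuclear libraries were above the cytosolic ones in each of these. ATP6V0B was higher by 0.56 ± 0.19 (adjusted p = 0.0178), a call that ended without nuclear fraction 2 (0.31, adjusted p = 0.318), with DESeq2 (0.0758) and without a filter on low counts (0.101).
Among soluble members ATP6V1C1 and ATP6V1E1 differed most. ATP6V1C1 had 165 and 154 CPM in the cytosolic and 65.5 and 56.3 CPM in the nuclear libraries (-1.42 ± 0.17, adjusted p = 2.22e-05). ATP6V1E1 had 225 and 303 CPM in the cytosolic and 110.0 and 91.6 CPM in the nuclear libraries (-1.42 ± 0.18), and ATP6V1B2 differed least (-0.77 ± 0.18, adjusted p = 0.00232). The 5 soluble calls held under all 8 alternatives. ATP6V0C, in the rotor, had 18.0 and 29.9 CPM in the cytosolic and 8.96 and 9.33 in the nuclear libraries (-1.42 ± 0.29), close to ATP6V1E1 in size and direction; without a filter on low counts the calls of ATP6V0C (adjusted p = 0.0515) and ATP6AP1 (0.0719) ended.
Outside the members, 6 of 9 tested soluble subunits were called lower in the nuclear fraction and 1 higher, ATP6V1B1 (3.22 ± 0.36), a form known from kidney intercalated cells. The lower values of ATP6V1D, ATP6V1F, ATP6V1G1 and ATP6V0D1, from -1.37 to -1.22, held under all alternatives; those of the other 2, ATP6V1E2 and ATP6V0D2, each ended without nuclear fraction 1 (adjusted p = 0.154 and 0.211) or 2 (0.285 and 0.0629), and that of ATP6V0D2 also without cytosol fraction 2 (0.257). Of 5 other membrane subunits ATP6AP2 (1.55 ± 0.19) and TCIRG1 (3.42 ± 0.40) were called higher and ATP6V0E2 lower (-0.60 ± 0.18), the last not without nuclear fraction 1 (adjusted p = 0.0874). The chaperone VMA21, which has membrane spans, was also lower (-1.28 ± 0.18), so spans and the nuclear fraction did not go together in every gene.

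**Figure D3:**
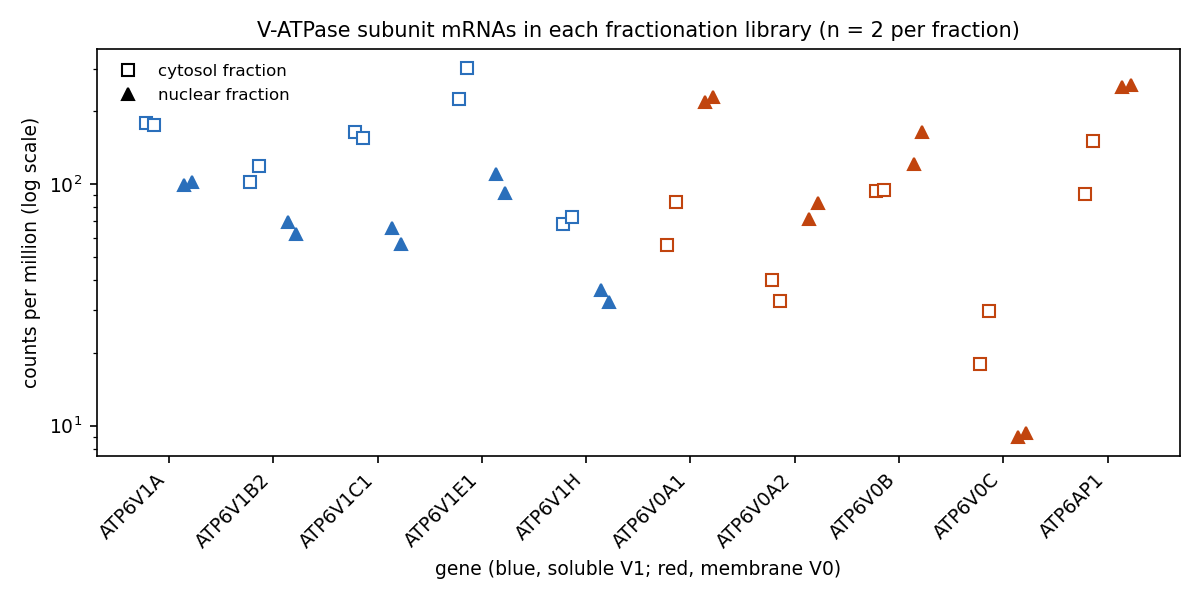
CPM in each library (y axis, log scale) of the cytosolic (open squares) and nuclear (filled triangles) fractions for the 10 V-ATPase subunit mRNAs (x axis), n = 2 per fraction. The triangles lie below the squares for the 5 soluble subunits and ATP6V0C, and above them for ATP6V0A1, ATP6V0A2, ATP6V0B and ATP6AP1.

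Cycloheximide and puromycin both stop translation, but cycloheximide leaves ribosomes and nascent chains on the mRNA and puromycin releases them; CCCP dissipates the proton gradient of mitochondria. The drug counts hold no untreated group. Rose and fell here compare labelled with unlabelled libraries of the same drug and do not measure an effect of the drug. With cycloheximide ATP6AP1, ATP6V0A2, ATP6V0B and ATP6V0A1 rose at OMM, and ATP6V1B2 fell. Of all genes 17.8% were called there, against 4 of 5 membrane members (all higher) and 1 of 5 soluble members. The median was 1.32 for the membrane members, -0.46 for the soluble members and 0.40 for all genes. The membrane median is the value of ATP6V0B, which rests on low unlabelled libraries. The soluble values also depend on single controls: ATP6V1E1 had 54.5 to 183 CPM in the unlabelled libraries and was at -1.15 without unlabelled 2.
ATP6AP1 had 147 and 154 CPM unlabelled and 729 and 669.7 CPM labelled (2.27 ± 0.19, adjusted p = 4.99e-08), the largest of the members there, and the call held under all 10 alternatives. ATP6V0A2 had 83.4 and 66.0 CPM unlabelled and 181 and 194 CPM labelled (1.39 ± 0.29, adjusted p = 0.00184). ATP6V0A1 went from 174 and 206 to 312 and 299 CPM (0.74 ± 0.17, adjusted p = 0.00390). The labelled libraries were above the unlabelled for these 3 genes. The ATP6V0A1 call ended without OMM cycloheximide labelled 1 (0.0751). Fitting only the 4 libraries of this comparison ended the calls of ATP6V0A1, ATP6V0A2 (0.0612), ATP6V0B and ATP6V1B2.
The ATP6V0B value rests on low unlabelled libraries. Its labelled libraries had 133 and 154 CPM, and its unlabelled libraries, both of which stood apart, had 92.3 and 27.1 CPM, below all 10 other unlabelled drug libraries (152 to 230 CPM). The log2 fold change was 1.32 ± 0.36 (adjusted p = 0.0147); without OMM cycloheximide unlabelled 2 it was 0.63 (adjusted p = 0.0549). The authors' deposited table gives -0.22 for the same gene and treatment and 1.70 for ATP6AP1. The control libraries behind those deposited values are not given in the sources used here and may differ from the ones fitted here. ATP6V1B2, at 154 and 87.8 CPM unlabelled and 60.6 and 61.1 CPM labelled (-0.94 ± 0.30, adjusted p = 0.0347), lost its call when either labelled library or unlabelled 1 was left out (without unlabelled 1, -0.53, adjusted p = 0.133).

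In the cytosol cycloheximide gave the reverse for several members. ATP6V1A and ATP6V1B2 rose at NES, ATP6V0B and ATP6AP1 fell, and 15.7% of all genes were called. ATP6V1A went from 178 and 143 to 323 and 334 CPM (1.03 ± 0.20, adjusted p = 0.00109). ATP6AP1 went from 158 and 238 to 88.9 and 79.3 CPM (-1.24 ± 0.18, adjusted p = 6.21e-05), and ATP6V0B from 192 and 152 to 30.4 and 30.8 CPM (-2.50 ± 0.38, adjusted p = 8.76e-05). The groups did not overlap for these 3 genes, and their calls held under all 10 alternatives each. ATP6V1B2 (36.7 and 71.8 against 83.2 and 118 CPM, 0.89 ± 0.30, adjusted p = 0.0480) lost its call without NES cycloheximide labelled 2 (0.58, adjusted p = 0.398), without unlabelled 1 (0.49, adjusted p = 0.431) and with RLE size factors (0.0664).
The difference between OMM and NES with cycloheximide was called for 5 of 10 members, where 13.5% of genes were called and the median of all genes was 0.27. It was 3.51 ± 0.26 for ATP6AP1 (adjusted p = 2.27e-08) and 3.82 ± 0.52 for ATP6V0B (adjusted p = 4.06e-05), both held under all 14 alternatives. The ATP6V0B value rests on the low OMM unlabelled libraries (92.3 and 27.1 CPM), and no alternative left out both. The difference was 0.94 ± 0.24 for ATP6V0A1, -1.08 ± 0.28 for ATP6V1A and -1.82 ± 0.42 for ATP6V1B2. All 5 membrane members had positive differences (lowest 0.82, ATP6V0A2, not called), and 4 of 5 soluble members had negative ones, ATP6V1E1 being the exception (0.41 ± 0.51, not called). The OMM unlabelled libraries were far apart for ATP6V0C (0.997 to 43.9 CPM), ATP6V1E1 (54.5 to 183) and ATP6V1H (18.4 to 81.4). Without unlabelled 2 the ATP6V0C difference, not called in the main fit, was 5.99. Without unlabelled 1 those of ATP6V1E1 and ATP6V1H were 1.47 and -1.75. The ATP6V0A1 call ended without NES cycloheximide labelled 2 (adjusted p = 0.117), unlabelled 1 (0.0734) or OMM cycloheximide labelled 1 (0.0880), and those of ATP6V0A1, ATP6V1A and ATP6V1B2 ended when only the 8 libraries of the comparison were fitted.

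With puromycin ATP6AP1 was the single member called at OMM, where 2.13% of genes were. It went from 139 and 185 CPM to 278 and 341 CPM (0.93 ± 0.18, adjusted p = 0.00701), and the call ended without labelled 2 (0.0887) or unlabelled 1 (0.343). In the main fit ATP6V0B was not called at OMM, though its unlabelled (182 to 184 CPM) and labelled libraries (85.9 to 93.0 CPM) did not overlap. It was called lower with low counts kept (-1.03, adjusted p = 4.69e-05) or with only the libraries of the comparison (-1.11, 0.00174). ATP6V1A was called higher in the same fits (0.61 and 0.53). The authors' deposited values were 0.455 for ATP6AP1 and -1.08 for ATP6V0B. At NES ATP6V0B fell, from 175 and 229.6 to 56.2 and 50.2 CPM (-1.94 ± 0.37, adjusted p = 0.00180), where 7.88% of genes were called. Without NES puromycin unlabelled 2, which stood apart, the value was -1.72. No member differed between OMM and NES past the threshold (0.112% of genes did); the 1 with an unadjusted p under 0.05 was ATP6AP1 (0.69 ± 0.25, adjusted p = 0.479), and DESeq2 called 0 soluble and 0 membrane members.
Set against each other at OMM, cycloheximide gave higher values than puromycin for ATP6V0B (2.37 ± 0.51, adjusted p = 0.00707) and ATP6AP1 (1.34 ± 0.25, adjusted p = 0.00235), 2 of 10 members where 5.58% of genes were called. DESeq2 also called the soluble ATP6V1B2, as lower (-1.28, adjusted p = 0.0306). edgeR called it with low counts kept (-1.42, 0.00079) or a replicate block (-1.31, 0.0469), but not with RLE size factors or only the libraries of the comparison. All 5 membrane members had positive differences, with a median of 0.87 against -0.66 for the soluble members and 0.37 for all genes. That of ATP6V0C was 4.93 without OMM cycloheximide unlabelled 2. The ATP6AP1 call held under all 14 alternatives. The ATP6V0B difference rests on the same low unlabelled cycloheximide libraries and was 1.67 without the second of them (adjusted p = 7.18e-06). Its call ended when only the libraries of the comparison were fitted (2.45, adjusted p = 0.0828).
With CCCP ATP6AP1 rose (213 and 208 to 351 and 313 CPM, 0.65 ± 0.18, adjusted p = 0.0308) and ATP6V0B fell (207 and 159 to 74.5 and 77.1 CPM, -1.28 ± 0.36, adjusted p = 0.0366) at OMM, where 6.85% of genes were called. Leaving out any 1 of the 4 libraries ended the ATP6AP1 call (adjusted p up to 0.196, without labelled 1), and leaving out either labelled library or unlabelled 1 ended that of ATP6V0B (up to 0.123, without unlabelled 1). ATP6V0B also fell at NES (226 and 182 to 61.1 and 34.9 CPM, -2.10 ± 0.37, adjusted p = 0.000794; 8.42% of genes). No member was called between OMM and NES (0.00466% of genes), where ATP6AP1 alone had an unadjusted p under 0.05 (1.01 ± 0.25, adjusted p = 0.277) and was also the 1 member called by DESeq2.
ATP6V0B was thus the member that fell at NES with each of the 3 drugs, and those calls held under all 10 alternatives each. Its quartile of shortest exon length had medians of -0.76 with cycloheximide, -0.49 with puromycin and -0.62 with CCCP at NES, against 0.65, 0.44 and 0.56 in the longest quartile, and the part of length in its fall was not tested. For ATP6V0B the OMM to NES difference with cycloheximide stands beside a median of 0.68 for the shortest quartile, and for ATP6AP1 beside 0.16 for the second.

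**Figure D4:**
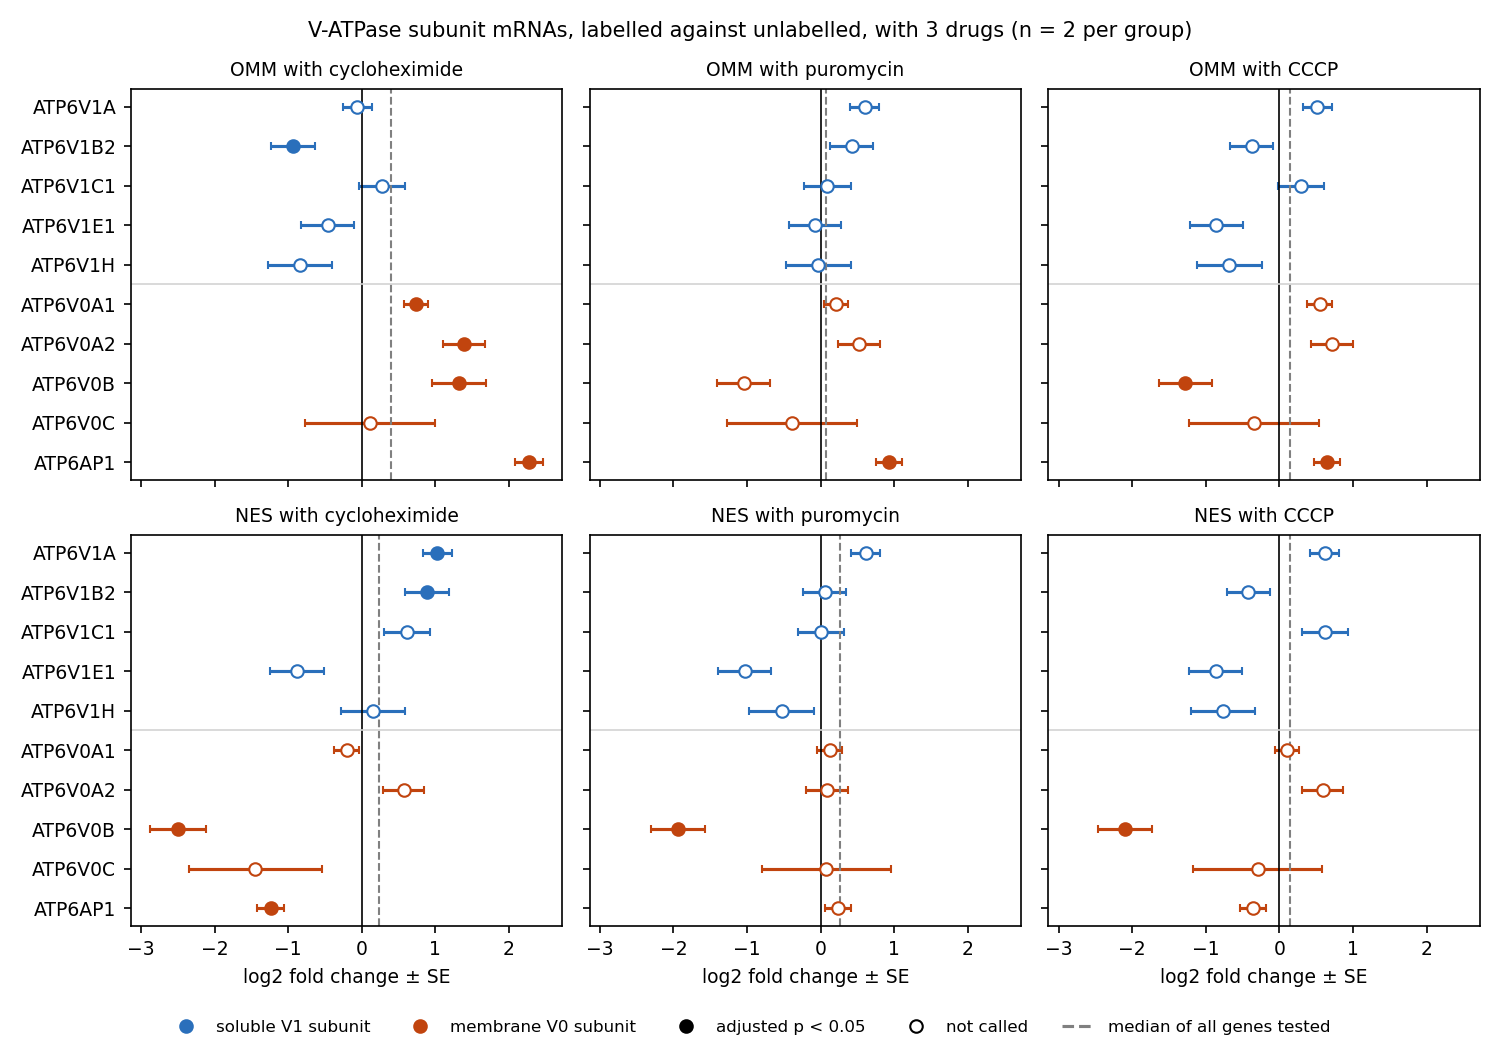
Log2 fold change of labelled against unlabelled libraries (x axis, mean and standard error, n = 2 per group) for each V-ATPase subunit mRNA (y axis) at OMM and NES with cycloheximide, puromycin or CCCP; filled points are called, and the dashed line is the median of all genes tested. With cycloheximide ATP6AP1 lies at 2.27 at OMM and at -1.24 at NES.

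Among other genes of the complex, ATP6AP2 rose at OMM with cycloheximide (1.97 ± 0.23), with a difference from NES of 2.75 ± 0.32 (adjusted p = 8.15e-06) and a higher value than with puromycin by 2.03 ± 0.32; these calls held under all alternatives run. ATP6V0E2 rose at OMM (1.59 ± 0.26) and differed from NES by 2.15 ± 0.36, and ATP6V0E1 differed by 2.45 ± 0.65. With only the libraries of the comparison fitted, ATP6V0E2 at OMM (adjusted p = 0.0612) and ATP6V0E1 between the places (0.234) were not called. The ATP6V0E1 difference was 1.60 without OMM cycloheximide unlabelled 2 and 4.21 without unlabelled 1. TCIRG1, a further form of subunit a, was called too, but had no count in either OMM unlabelled library with cycloheximide and 102 and 77 counts in the labelled, so no fold is given. With these, 3 of 5 other membrane subunits were called higher at OMM with cycloheximide, where 17.8% of all genes were called. Between OMM and NES 4 of 5 were called higher at OMM, where 13.5% of all genes were called. Of 9 tested soluble subunits, 1 was called lower at OMM, ATP6V1D (-1.26 ± 0.40), but without OMM cycloheximide unlabelled 2 it was at -0.15. The ATP6V1D call also ended without labelled 1 (-1.25) or labelled 2 (-1.40). None of the 9 was called lower at OMM than at NES and 1 was called higher, ATP6V1F (1.36 ± 0.38, adjusted p = 0.0192), but not with only the libraries of the comparison (0.0878). At NES with cycloheximide ATP6V1F (-1.54 ± 0.27) and ATP6V1G1 (-1.37 ± 0.26) fell under all alternatives run. ATP6V1F, ATP6V1G1 and ATP6V0E1 (789, 1305 and 1623 bases) are in the shortest quartile of genes. Its medians with cycloheximide were -0.76 at NES and 0.68 between OMM and NES, and the part of length was not tested. Of 7 assembly factors and regulators, 2 rose at OMM with cycloheximide, 3 rose at NES and none fell. VMA21, with membrane spans, rose both at OMM (1.17 ± 0.19) and at NES (0.90 ± 0.19). DMXL2, a regulator not listed among the factors with spans, also rose at both, and DMXL1 at NES. With only the libraries of the comparison fitted, neither OMM call remained (adjusted p = 0.117 for VMA21 and 0.0792 for DMXL2). None of the 7 was called between OMM and NES. DMXL2 was higher with cycloheximide than with puromycin at OMM, a call kept under 8 of 14 alternatives.

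Nocodazole, which takes microtubules apart, was applied to OMM and NES cells for 5 lengths of time. Unlabelled libraries exist for 3 and 30 min, and every time was set against the mean of these 4 libraries, so the times share their controls. The nocodazole counts hold no untreated group either, so rose and fell again compare labelled with unlabelled libraries and do not measure an effect of nocodazole. At OMM the median of all genes was itself above 0 at 4 of the 5 times (0.70, 0.90, 0.36, 0.30 and 0.00 from 3 min to 2 h), and the OMM unlabelled libraries lacked counts for 2.98 to 16.3% of well-expressed genes. Values of members at OMM are therefore also given less this median.
ATP6AP1 rose at OMM at 3 and 6 min. Its labelled libraries had 564 and 543 CPM at 3 min, 624 and 662 at 6 min, 256 and 281 at 9 min, 240.1 and 319 at 30 min and 263 and 158 at 2 h, and the unlabelled libraries 86.2 and 195 at 3 min and 151 and 247 at 30 min. The labelled libraries of the first 2 times lay above all others. The log2 fold changes were 1.73 ± 0.28 (adjusted p = 0.000234) and 1.93 ± 0.28 (adjusted p = 4.30e-05), which is 1.03 and 1.03 above the median of all genes, and both calls held under all alternatives.
At the later times it was at 0.69 ± 0.28, 0.75 ± 0.28 and 0.35 ± 0.28, and not called, which is 0.33, 0.45 and 0.35 above that median. Time points were not tested against each other.
ATP6V0A1 was called at the same times (1.02 ± 0.26, adjusted p = 0.0124, and 1.02 ± 0.26, adjusted p = 0.0106), but only 0.32 and 0.12 above the median of all genes. Leaving out either labelled library of the time ended each call (adjusted p 0.0803 and 0.122 at 3 min, 0.0545 and 0.0967 at 6 min), as did the 3 min controls alone at 3 min (0.0840).
At 2 h ATP6V1A was called higher (0.65 ± 0.21, adjusted p = 0.0441) and ATP6V1E1 lower (-1.15 ± 0.33, adjusted p = 0.0237). Both calls ended when either labelled library of 2 h or unlabelled 2 of 3 min was left out; without the latter, adjusted p was 0.139 for ATP6V1A and 0.0891 for ATP6V1E1, and without labelled 2 it was 0.494 for ATP6V1A. The ATP6V1A call also ended without OMM unlabelled 1 of 30 min (0.0834) and with RLE size factors (0.0641). The shares of all genes called at OMM were 13.0%, 15.2%, 13.6%, 12.2% and 12.7% from 3 min to 2 h, and 6 of 50 member values were called.

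At NES ATP6V0B fell at every time. The labelled libraries had 46.4 and 40.5 CPM at 3 min, 42.8 and 44.8 at 6 min, 52.8 and 58.8 at 9 min, 70.9 and 55.9 at 30 min and 80.6 and 35.9 at 2 h, against 135 and 151 CPM in the 3 min and 138 and 272 CPM in the 30 min unlabelled libraries. All 10 labelled libraries were below all 4 unlabelled ones. Log2 fold changes ran from -1.98 ± 0.36 at 3 min (adjusted p = 0.00159) to -1.43 ± 0.35 at 30 min (adjusted p = 0.0305). The shortest quartile of genes, which holds ATP6V0B, had medians of -0.54 to -0.41 at these times. These were 5 of 50 member values, where 3.12%, 3.76%, 1.2%, 2.2% and 3.15% of all genes were called.
Each of the 5 calls ended when some single library was left out, with values that stayed between -2.33 and -1.03. The 3 min call ended without its labelled 2 (adjusted p = 0.0977), the 6 min call without its labelled 1 (0.0556), the 2 h call without its labelled 2 (0.387), and those of 9 and 30 min without either of their labelled libraries (up to 0.816 and 0.558). The calls of 9 min, 30 min and 2 h also ended without unlabelled 2 of 3 min (0.0769, 0.112 and 0.0549), a library that stood apart, or unlabelled 2 of 30 min (0.0977, 0.141 and 0.0626).
Between OMM and NES, ATP6AP1 differed by 2.27 ± 0.41 at 3 min (adjusted p = 0.00227) and 2.43 ± 0.41 at 6 min (adjusted p = 0.00125). It was at 1.51 ± 0.41, 1.59 ± 0.41 and 1.01 ± 0.41 at the later times, not called. The median of all genes between OMM and NES was itself 0.49, 0.444, 0.277, 0.325 and 0.16 from 3 min to 2 h. ATP6V0B had differences of 1.66 ± 0.47 (adjusted p = 0.0630) and 1.65 ± 0.47 (adjusted p = 0.0719) at the first 2 times, also not called. These 2 calls of 50 values stand beside 2.34%, 2.08%, 1.23%, 1.11% and 1.0% of all genes. They held whichever single library was left out and ended when only the libraries of the comparison were fitted (adjusted p = 0.130 and 0.108).

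**Figure D5:**
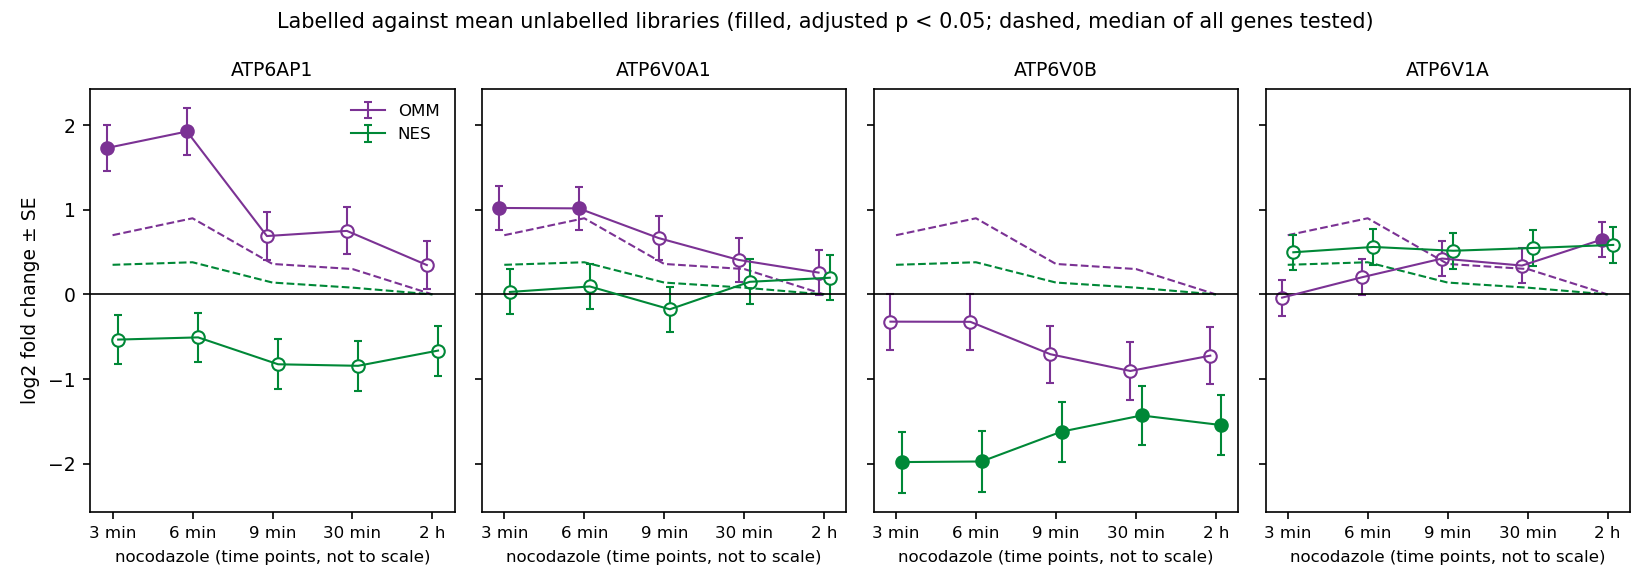
Log2 fold change of labelled libraries against the mean of the unlabelled libraries (y axis, mean and standard error) at 5 times of nocodazole (x axis, not to scale) for ATP6AP1, ATP6V0A1, ATP6V0B and ATP6V1A at OMM (purple) and NES (green), with the median of all genes dashed and called values filled. ATP6AP1 at OMM is at 1.73 and 1.93 at 3 and 6 min and below 0.8 later, and ATP6V0B at NES is below -1.4 throughout.

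The membrane members did not move as 1 group. Across the 9 constructs, the genes whose log2 fold changes were most like those of ATP6AP1, out of 8457 that averaged 20 CPM or more, were SLC29A1 (Pearson r = 0.977), a nucleoside transporter, SSR2 (0.965), a subunit of the ER translocon-associated complex, and PIGT (0.964), a subunit of the GPI transamidase of the ER. Those most like ATP6V1A were EML4 (0.960), a microtubule-associated protein, ANKRD46 (0.951) and PRRC1 (0.924). These are descriptions over 9 points that share sequencing and controls. No other V-ATPase subunit was among the nearest 3 of either gene. At ERM the log2 fold changes of the 5 membrane members spanned -1.0 to 1.81 (SD 1.05) and those of the 5 soluble members -0.71 to -0.09 (SD 0.27). The rotor gene ATP6V0B, with 13 middle-T codons in its richest window, lay on the other side of 0 from ATP6V0A2, with 16.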

How the data were processed

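The labels describe poly(A) or total RNA sequenced after APEX2 labelling or fractionation. Trimmomatic, STAR, HTSeq, SAMtools, bedtools and DESeq2 with GRCh38 are named in the submitters' processing notes, with versions and settings not given in the sources used here. The authors deposited raw counts per gene, which were analysed here, and tables of log2 fold changes with p-values, from which single values are quoted. Whether the counting used strand is not given in the sources used here.

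Counts were fitted with edgeR 4.0.16 (R 4.3.3, limma 3.58.1), 1 model of group means per table: TMM scaling, filterByExpr, trended dispersion, the quasi-likelihood F test, Benjamini-Hochberg adjustment over all genes of a comparison, called at an adjusted p under 0.05. The SE is the absolute log2 fold change divided by the square root of F. CPM and RPKM are scaled by TMM, and RPKM uses the exon union of GENCODE 29. Groups have n = 2, so p-values rest on the spread pooled over groups. The technical repeat of 1 MITO library entered no test. The script was tested on simulated data. As alternatives, low counts were kept, DESeq2 1.42.0 or edgeR's RLE scaling was used, a replicate block was added, only the libraries of the comparison were fitted, other controls were taken, and each library was left out in turn. Leaving out libraries that stood apart where their group kept another, the length quartiles and the table of kept calls were added after seeing the data. The members and gene lists were chosen with earlier results of these data known. All 10 members are described; other genes of the complex are given by counts, with values for some of those called.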

Additional observations from a re-analysis of the deposited data

Results flagged for a closer look

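The following differences between 2 places or 2 drugs passed the edgeR test of the difference itself (n = 2 libraries per group). Without drugs, ATP6V0A2 was labelled more at ERM than at NES by 2.23 on the log2 scale, and ATP6AP1 more at OMM than at NES by 1.16. With cycloheximide, the differences between OMM and NES were 3.82 for ATP6V0B, 3.51 for ATP6AP1, 0.94 for ATP6V0A1, -1.08 for ATP6V1A and -1.82 for ATP6V1B2. At OMM, cycloheximide exceeded puromycin by 2.37 for ATP6V0B and 1.34 for ATP6AP1. The ATP6V0B values with cycloheximide rest on low OMM unlabelled libraries. With nocodazole, ATP6AP1 differed between OMM and NES by 2.27 at 3 min and 2.43 at 6 min, where both times share their unlabelled libraries. Groups of 2 libraries are too small to mark a single library by its gap to the others.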

How the results depend on the processing

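Of 390 member values, 58 were called, 24 of these under every alternative run; 34 lost the call and 82 others gained one under at least 1 alternative. Each group has 2 libraries, so single libraries decide many calls; where 1 is left out, the lone sample is assumed to vary like the other groups. RLE size factors moved the median of all genes by at most 0.081. ATP6V0C, with low counts, was the only member to change sign where the main or the alternative value was called. Changes of sign between values that were not called were not counted. For ATP6V0C, leaving out 1 library gave -0.71 to 5.08 at OMM with 30 min and -1.96 to 4.44 with 2 h of nocodazole. The high values came without unlabelled 1 of 30 min, the other 30 min unlabelled library having 0 counts.

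Counts of member calls below replace the reported count. Under DESeq2 there were 2 at OMM, 1 for ERM against OMM, 11 for OMM and 7 for OMM against NES with nocodazole. With no filter on low counts there were 2 at OMM, 1 at NES, 2 for ERM against NES, 1 for ERM against OMM, 11 in nuclear constructs, 13 for OMM and 12 for NES with drugs, and 4 for OMM against NES with nocodazole. With only the libraries of the comparison there were 0 at OMM, 0 for OMM against NES, 0 for KDEL and MITO, 2 for OMM against NES with drugs, and with nocodazole 2 at OMM, 1 at NES and 0 between them. Controls of all 9 constructs gave 4 at OMM and 2 at NES. Without those libraries that stood apart whose group kept another (so not NIK labelled, nor OMM unlabelled with cycloheximide or nocodazole) there were 2 at OMM, 1 at NES, 2 for ERM against NES, 12 in nuclear constructs, 2 for NES and 4 for OMM against NES with nocodazole. With unlabelled libraries of the same time only, OMM nocodazole at 3 and 30 min had 1 call in place of 2. The causes were not tested.

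Replicate numbers did not pair the samples: residuals of same-numbered libraries had correlations from -0.174 to 0.149. With a replicate block there were 2 calls at OMM, 1 at NES, 2 for ERM against NES, 1 for ERM against OMM and 12 in nuclear constructs, and ATP6V1A at OMM with 2 h of nocodazole lost its call (adjusted p = 0.0600).

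Leaving out each library in turn gave 2 to 3 calls at ERM, 0 to 2 at OMM, 0 to 1 at NES, 1 to 2 for ERM against NES, 0 to 1 for OMM against NES and for ERM against OMM, 8 to 12 in nuclear constructs, 0 to 1 for KDEL and MITO, 0 for MITO total RNA, and 9 to 10 for the fractions. With drugs it gave 6 to 16 at OMM, 6 to 10 at NES, 4 to 9 between them and 2 to 6 for cycloheximide against puromycin. With nocodazole it gave 4 to 22 at OMM, 2 to 7 at NES and 2 to 11 between them.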
